A study of Mus musculus with 12 samples.

Results

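The regions described here were m6A peaks on long noncoding RNAs (lncRNAs) whose transcripts the deposited lists class as intergenic, that is, as having no associated coding gene at their locus. Every peak of the 6 lncRNA peak lists with that class was kept once, under the first transcript of that class listed for it. Peaks of different lists that overlapped by at least 1 base were merged. This gave 2022 intergenic peaks on 714 transcripts of 676 genes, and they merged into 792 regions. All lncRNA peaks of the same lists merged into 4414 regions, so the intergenic ones were a minority of the lncRNA peaks.

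The cells were of C17.2, a line of neural stem cells (NSCs) from mouse that has been immortalised, and the genotype in every group was WT. The H/R group (hypoxia/reoxygenation) was held for 12 h at 5% oxygen and then for 48 h in standard oxygen, as a culture model of ischemia and reperfusion, and the control group stayed in standard oxygen. Methylated RNA immunoprecipitation sequencing (MeRIP-seq) was run on both groups, with 3 immunoprecipitates (IP) and 3 inputs in each, 12 samples in all. The peak lists are named A, B and C within each group, and each list stands for 1 IP set against its input. Values given for the lists of a group follow the order A, B, C. Nothing in the labels says that the 3 samples of a group came from separate cultures, so every p below measures the spread between these lists, which may be technical.

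N6-methyladenosine (m6A) is a methyl mark that the METTL3-METTL14 complex writes on adenosines of RNA, mostly in the sequence context called DRACH (where D stands for A, G or T, R for A or G, and H for A, C or T), and that reader proteins use to change the splicing, decay or translation of the RNA. lncRNAs carry the mark as well as mRNAs, and Malat1, an abundant RNA of nuclear speckles, is a well known example. Intergenic lncRNA catalogues also hold many pseudogenes, among them processed pseudogenes, which are copies of spliced mRNAs that were reverse transcribed and inserted elsewhere in the genome, so that a sequenced fragment can be almost identical in the pseudogene and in its coding relative.

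Stretches of the top-ranked regions are shown here because the results turn on them. They were read from the reference genome (GRCm38, the build mm10 of the lists) on the transcript strand, around the DRACH site nearest the middle of the region, and every DRACH site is in capitals. The first 5 regions found in all 6 lists were taken at chr4:149142738-149142798 (minus strand) for Rpsa-ps12, chr1:179520558-179520618 (minus strand) for Gm5561, chr3:18009886-18009946 (plus strand) for Gm5844, chr10:27936566-27936626 (plus strand) for Gm10145 and chr5:3236580-3236640 (plus strand) for Gm15772.
Rpsa-ps12: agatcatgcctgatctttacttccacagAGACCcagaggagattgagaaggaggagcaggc
Gm5561: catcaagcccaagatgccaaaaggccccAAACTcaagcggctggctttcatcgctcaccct
Gm5844: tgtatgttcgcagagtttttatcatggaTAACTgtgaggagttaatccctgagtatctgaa
Gm10145: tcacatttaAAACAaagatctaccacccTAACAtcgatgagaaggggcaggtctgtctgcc
Gm15772: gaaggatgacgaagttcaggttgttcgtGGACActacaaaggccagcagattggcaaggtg
The first 5 regions found in all 3 H/R lists and in 0 control lists were taken at chrX:146176183-146176243 (plus strand) for Hmgb1-ps2, chr6:47781624-47781725 (plus strand) for Rny3, chr4:12233335-12233395 (plus strand) for Gm11847, chr6:48529346-48529406 (plus strand) for Zfp862-ps and chr5:46414433-46414493 (plus strand) for Gm7931, with Rny3 shown over its whole length.
Hmgb1-ps2: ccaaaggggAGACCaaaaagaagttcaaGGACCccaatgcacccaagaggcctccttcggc
Rny3: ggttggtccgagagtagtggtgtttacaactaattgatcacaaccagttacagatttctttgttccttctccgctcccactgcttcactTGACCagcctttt
Gm11847: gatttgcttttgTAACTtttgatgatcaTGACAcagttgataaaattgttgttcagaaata
Zfp862-ps: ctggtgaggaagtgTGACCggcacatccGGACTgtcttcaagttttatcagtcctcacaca
Gm7931: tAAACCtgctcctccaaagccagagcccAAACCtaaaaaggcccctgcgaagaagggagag
The 2 regions found in all 3 control lists and in 0 H/R lists were taken at chr3:58103364-58103424 (minus strand) for Gm5537 and chr14:73796888-73796948 (minus strand) for Gm16409.
Gm5537: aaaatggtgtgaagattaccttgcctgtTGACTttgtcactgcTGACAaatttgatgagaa
Gm16409: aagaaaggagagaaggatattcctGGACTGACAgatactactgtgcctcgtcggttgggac
These windows were placed on a DRACH site, so their motif is no finding. In windows of 101 bases at the centre of every region, chosen without regard to the motif, DRACH was present on the transcript strand in 89.8% of the 792 intergenic regions, against 84.4% of the 3623 regions of the other lncRNA classes. The shorter motif GGAC was present in 33.2% of the intergenic windows and in 33.1% of the others, and GGACT, which overlaps it, in 10.4% and 11.4%.

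Most of the intergenic transcripts with a peak were pseudogenes. By GENCODE vM21 and RefSeq annotation, 337 of the 714 transcripts (47.2%) were processed pseudogenes, 87 (12.2%) were pseudogenes of other kinds, those annotated as transcribed processed pseudogenes included, and 196 (27.5%) were lncRNA genes. A further 17 had a symbol that is now annotated as protein-coding, 5 were small or other noncoding RNAs, and 71 could not be classed. Of the 792 regions, 65 overlapped the span of a gene that GENCODE vM21 counts as coding, and 629 (79.4%) had no coding gene within 5000 bases. The sequence of 414 regions (52.3%) matched a coding transcript of another locus with at least 90% identity over at least 50% of the region. The median identity of these matches was 98.6%, and 403 of the 414 lay on the sense strand. The matched coding genes numbered 251, and 101 of the regions matched 1 of 41 ribosomal protein genes.

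How close such a pair can be is shown by 3 regions and their coding relatives, over 75 aligned bases without a gap, with the differing bases in capitals. The stretches lie at chr3:18008962-18009036 for Gm5844 and chr12:110695344-110695418 for Hsp90aa1, a cytosolic chaperone, at chrX:146175942-146176016 for Hmgb1-ps2 and chr5:149050663-149050737 for Hmgb1, an abundant chromatin protein, and at chr4:149142999-149143073 for Rpsa-ps12 and chr9:120130177-120130251 for Rpsa, a protein of the small ribosomal subunit.
Gm5844: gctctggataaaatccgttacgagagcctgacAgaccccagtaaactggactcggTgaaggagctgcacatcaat
Hsp90aa1: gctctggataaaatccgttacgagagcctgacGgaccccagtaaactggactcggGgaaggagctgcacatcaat
Hmgb1-ps2: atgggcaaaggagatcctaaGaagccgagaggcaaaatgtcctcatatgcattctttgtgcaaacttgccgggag
Hmgb1: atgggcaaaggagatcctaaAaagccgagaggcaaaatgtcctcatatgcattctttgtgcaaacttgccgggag
Rpsa-ps12: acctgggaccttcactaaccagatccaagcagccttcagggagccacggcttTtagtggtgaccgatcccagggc
Rpsa: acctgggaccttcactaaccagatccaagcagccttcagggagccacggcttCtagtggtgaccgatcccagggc
The Gm5844 stretch differed from its relative at 2 of 75 bases, and the Hmgb1-ps2 and Rpsa-ps12 stretches at 1 of 75 each. Over the whole region, identity was 98.5% for Gm5844, 98.6% for Hmgb1-ps2 and 97.9% for Rpsa-ps12.

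The first comparison was the number of intergenic peaks in the H/R and the control group. Intergenic peaks numbered 424, 350 and 536 in the H/R lists, against 293, 208 and 211 in the control lists. All 3 H/R lists were longer than all 3 control lists, with a mean of 437 ± 93.6 against 237 ± 48.2 (SD, n = 3 lists each; difference 199, two-sided exact permutation p = 0.1). A peak count gives no RNA level. As these are bulk samples, fewer cells with an RNA and less RNA per cell cannot be told apart either. The p of 0.1 is the smallest that 3 lists against 3 can give, so no such comparison here could pass 0.05. The peaks lay on 387, 325 and 483 transcripts in the H/R lists, against 277, 202 and 204 in the control lists (exact permutation p = 0.1), and on 375, 315 and 466 genes against 269, 197 and 201 (exact permutation p = 0.1). Whole lncRNA lists were 2649, 1980 and 3243 peaks long in the H/R group, against 1594, 1115 and 1047 in the control group, so the H/R lists were longer before any class was chosen. When every lncRNA list was held to its best 1047 peaks, the length of the shortest, the order turned round, with 155, 186 and 156 intergenic peaks in the H/R lists and 189, 196 and 211 in the control lists (exact permutation p = 0.1). With only peaks of at least 10-fold enrichment kept, the groups overlapped, with 183, 305 and 260 intergenic peaks in the H/R lists and 284, 208 and 211 in the control lists (difference 15, exact permutation p = 0.9). The folds are not scaled between lists, and the lowest intergenic fold was 14.56 in control B and 13.31 in control C. This cut therefore removed no intergenic peak there and fell mostly on the H/R lists, here and wherever it is used below.

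As a share of all lncRNA peaks, the intergenic ones were lower in every H/R list than in any control list. They made up 16.01%, 17.7% and 16.5% of the lncRNA peaks in the H/R lists, against 18.4%, 18.7% and 20.2% in the control lists. The groups did not overlap, and the means were 16.7 ± 0.855% and 19.1 ± 0.954% (SD, n = 3 each; difference -2.33 percentage points, exact permutation p = 0.1). The direction was the same at equal list length. There each share is the intergenic count over 1047 peaks, so this repeats the turned order of the counts given above and is no separate result. With a fold of at least 10 the groups overlapped. The shares were then 16.9%, 18.8% and 17.4% in the H/R lists, against 18.8%, 18.7% and 20.2% in the control lists (difference -1.56 percentage points, exact permutation p = 0.3).

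Both pseudogenes and lncRNA genes had more peaks in each H/R list than in any control list, while the shares of both types overlapped between the groups. Pseudogenes carried 257, 248 and 306 of the intergenic peaks in the H/R lists, against 203, 155 and 168 in the control lists (exact permutation p = 0.1). Annotated lncRNA genes carried 108, 64 and 147 peaks in the H/R lists, against 62, 31 and 22 in the control lists (exact permutation p = 0.1). At equal list length the order of the pseudogene peaks turned round, with 115, 142 and 108 in the H/R lists and 147, 148 and 168 in the control lists (mean difference -32.7, exact permutation p = 0.1). The lncRNA gene peaks then overlapped between the groups, with 19, 22 and 27 in the H/R lists and 26, 27 and 22 in the control lists (mean difference -2.33, exact permutation p = 0.7). With a fold of at least 10 the differences were 1.33 pseudogene peaks and 5 lncRNA gene peaks, and the groups overlapped for both. Of the intergenic peaks, lncRNA genes held 25.5%, 18.3% and 27.4% in the H/R lists and 21.2%, 14.9% and 10.4% in the control lists, and here the groups overlapped (exact permutation p = 0.2). Pseudogenes held 60.6%, 70.9% and 57.1% in the H/R lists and 69.3%, 74.5% and 79.6% in the control lists (exact permutation p = 0.2). Peaks in regions that match a coding transcript made up 57.5%, 69.4% and 52.2% in the H/R lists and 66.2%, 69.2% and 75.8% in the control lists (exact permutation p = 0.3).

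**Figure D1:**
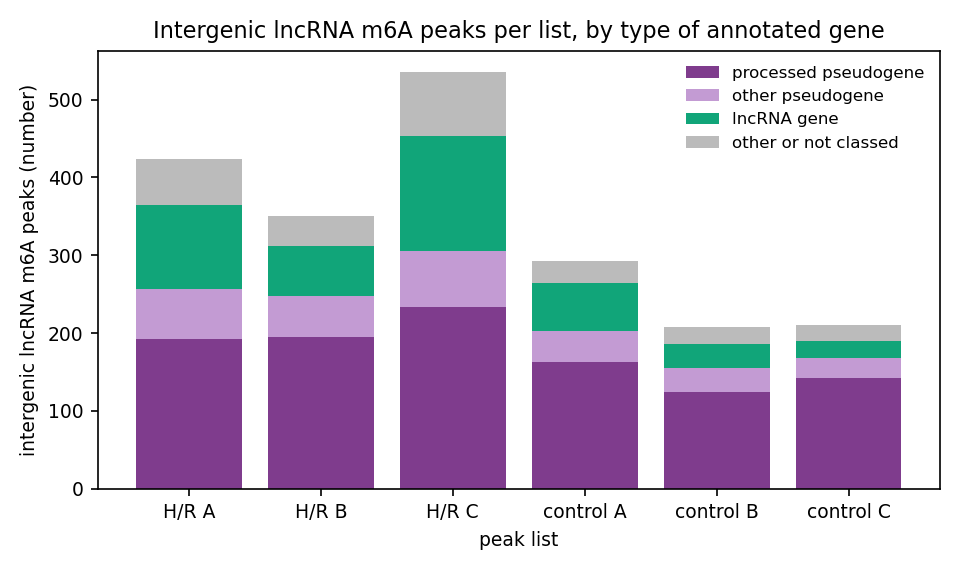
Number of intergenic lncRNA m6A peaks (y axis) in each of the 6 peak lists (x axis), with bars divided by the type of the annotated gene. The H/R bars reach 424, 350 and 536 peaks and the control bars 293, 208 and 211, and pseudogenes form the largest part of each bar.

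Presence over the 6 lists was uneven. Of the 792 regions, 110 were found in all 6 lists, 367 (46.3%) in only 1 list, 431 (54.4%) in H/R lists alone, 66 (8.33%) in control lists alone and 295 in both groups. Over all 4414 lncRNA regions, 57.2% were in H/R lists alone, 4.49% in control lists alone and 43% in only 1 list. A share of 13.9% in all 6 lists stood beside 14% over all 4414 lncRNA regions. Single-list regions were most frequent in H/R C, where 193 of 527 regions had no counterpart, against 89 of 420 in H/R A and 38 of 344 in H/R B. In the control lists, 22 of 292, 15 of 206 and 10 of 210 regions stood alone. The H/R lists A and B shared 255 regions, A and C 272, and B and C 249, while the control lists A and B shared 162, A and C 164, and B and C 152. Between 72.6% and 79.5% of the regions of a control list were found again in any given H/R list, and between 29.8% and 63.4% of the regions of an H/R list in any given control list.

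**Figure D2:**
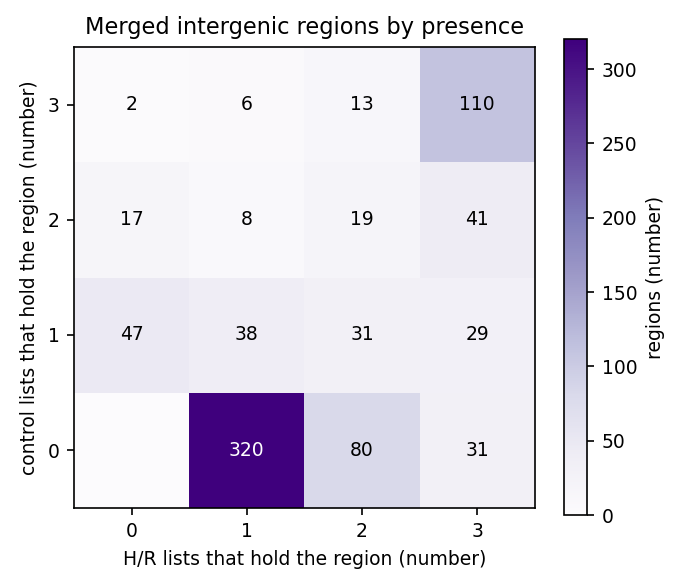
Number of merged intergenic regions by the number of H/R lists (x axis) and of control lists (y axis) that hold them, with colour and digits giving the count. The fullest cell holds the 320 regions of a single H/R list, the upper right cell the 110 regions of all 6 lists, and 31 regions stand at 3 H/R lists and 0 control lists against 2 in the opposite corner.

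Regions found in all 3 H/R lists and in 0 control lists are called H/R-only, and those of all 3 control lists and 0 H/R lists control-only. There were 31 H/R-only intergenic regions, or 3.91% of 792, and this is below the 5.69% found over all 4414 lncRNA regions and the 6.07% (220 of 3623) of the other lncRNA classes. There were 2 control-only regions, or 0.253%, beside 0.159% over all lncRNA regions. Both counts moved with list length. With lists of equal length, 6 were H/R-only and 10 were control-only, and 3 of the 31 H/R-only regions and both control-only regions were still called. Equal length keeps all 1047 lncRNA peaks of control C and 1047 of the 1115 of control B, so the H/R lists lose far more peaks. With a p score of at least 100, 16 of the 31 H/R-only regions and 0 of the 2 control-only regions were still called. With a fold enrichment of at least 10 required, 11 were H/R-only, and each of the 11 was among the 31. No peak of any class, mRNA and circular RNA (circRNA) lists included, lay over an H/R-only region in any control list. For the mRNA lists this check could hardly have failed. An mRNA peak of any list lay over only 1 of the 110 regions in all 6 lists. It lay over only 1 of the 649 regions that were neither in all 6 lists, nor H/R-only, nor control-only. By type, the 31 comprised 17 processed and 7 other pseudogenes and 4 lncRNA genes, with 1 small RNA, 1 symbol now annotated as coding and 1 transcript not classed. Leaving out regions that match a coding transcript left 10 H/R-only and 0 control-only regions. Under these alternative settings no share over all lncRNA regions was taken. Whether the shifts in these counts are particular to intergenic regions was not tested.

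The p score given below is the -log10 of a peak's p from the peak caller MACS, multiplied by 10, and 180 of the 2022 peaks had a score of 3100 or more. Fold enrichment is the ratio of IP to local background, from the same caller. The first H/R-only region by rank was Hmgb1-ps2 (chrX:146175942-146176577), a processed pseudogene of Hmgb1. Its fold enrichment was 10.23, 18.8 and 17.67 in the H/R lists, with a p score of 3100 in each, and it was in no control list. The coding gene Hmgb1 itself had an mRNA peak in all 3 H/R and all 3 control lists, and 9 further regions matched it. Of these 10 regions, 4 were in all 6 lists. The second was Rny3 (chr6:47781624-47781725), a Y RNA of the Ro ribonucleoprotein and not a long RNA, whose peak covered all 102 bases in each H/R list. The Rny3 fold enrichment was 5.42, 15.09 and 8.78 in the H/R lists, with p scores of 455, 1771 and 1400. The other 4 small or other noncoding RNA regions were also found in H/R lists alone, 3 of them in 1 list and 1 in 2 lists. H/R lists alone also held 54.4% of all 792 intergenic regions and 57.2% of all 4414 lncRNA regions, so so few regions show no pattern of their type.

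Zfp862-ps, a transcribed unitary pseudogene (a gene that lost its coding function without leaving a coding copy), held 5 regions. Its H/R-only region at chr6:48528351-48530440 spanned 2090 bases, with fold enrichments of 9.35, 8.08 and 13.59 in the H/R lists. A second region of 212 bases was also H/R-only, with 7.02, 15.16 and 6.38. A pair of neighbours in the same transcript was in all 6 lists, and the longer of them, of 2794 bases, had folds of 14.83, 18.67 and 13.88 in the H/R lists, against 30.12, 40.67 and 37.74 in the control lists. Hmgb1-ps2, Rny3 and the 2090-base region of Zfp862-ps were the H/R-only regions still called at equal list length.

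Of the remaining H/R-only regions of highest rank, Gm11847 matched Hnrnpa3, an RNA-binding protein gene, at 98.2% identity, and its fold was 14.1, 21.44 and 21.83 in the H/R lists. Gm7931, a region of 273 bases, had the highest lowest fold among the 31, with 15.04, 19.65 and 22.46. The lncRNA genes C030014I23Rik, 2610035D17Rik and Gm26779 had no match to a coding transcript. C030014I23Rik had folds of 5.99, 29.11 and 13.65, 2610035D17Rik 5.3, 12.1 and 11.94, and Gm26779 13.82, 16.07 and 12.27 in the H/R lists. Slfn10-ps, a relative of the interferon-inducible Schlafen genes, had 12.7, 18.49 and 18.57, and its match Slfn9 had an mRNA peak in all 6 lists. A short Gm9581 stretch of 67 bases (chr16:59577798-59577864) had 7.55, 8.36 and 14.31, while 2 other regions of the same gene were in all 6 lists. Over all 31, the lowest fold ranged between 5.18 and 15.04 (median 7.71) and the lowest p score between 51.7 and 3100 (median 104). For 21 of the 31 (67.7%) a coding transcript matched, beside 52.3% of all 792 regions. For 11 of these 21 the coding gene had an mRNA peak in at least 1 control list. Taken list by list, a measure unlike this one, the coding gene had such a peak for 45.9%, 45.8% and 44.7% of the matching regions in control A, B and C.

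Both control-only regions were processed pseudogenes. Gm5537 (chr3:58102609-58104269) matched Pgk1, a glycolytic enzyme gene, at 99.7% identity over its 1661 bases, and its fold was 88.15, 43.87 and 59.65 in the control lists. Gm16409 (chr14:73796541-73797290) matched Rps6, a small-subunit ribosomal protein gene, at 98.7%, with folds of 600.3, 174.37 and 22.39. Their lowest p scores were 77.2 and 66, near the lowest score of 50.04 among all intergenic peaks.

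The 110 regions in all 6 lists were mostly pseudogenes as well, with 70 processed and 14 other pseudogenes, 13 regions of lncRNA genes, 6 of symbols now annotated as coding and 7 not classed. Of the 110, 83 matched a coding transcript, and for 34 of the 83 the coding gene had an mRNA peak in all 6 lists, while for 27 it had none in any list. Rpsa-ps12 ranked first. Its fold enrichment was 227.39, 341.36 and 203.61 in the H/R lists, against 656.83, 442.77 and 893.96 in the control lists. Gm5561, a copy of the ribosomal protein gene Rpl29, had 159.15, 207.07 and 152.24 in the H/R lists, against 367.14, 498.81 and 333.09 in the control lists. Gm5844, the Hsp90aa1 copy, had 357.43, 163.28 and 128.47 against 904.94, 1506.92 and 667.89. In all 3 the H/R and control folds did not overlap.

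Gm10145 matched Ube2l3, a ubiquitin-conjugating enzyme gene, at 99.6% and had folds of 96.76, 119.01 and 79.62 in the H/R lists, against 213.32, 529.29 and 252.86 in the control lists. Gm15772, a copy of the ribosomal protein gene Rpl26, had 16.48, 29.41 and 16.26 against 64.8, 48.48 and 51.37. Gm9531 was identical to Set, a histone chaperone gene, over its 775 bases and had 44.91, 56.55 and 54.54 against 123.38, 93.68 and 106.43. Hmgb1-ps1 and Llph-ps2 were the exceptions to this order among the first 10, since their groups overlapped. Hmgb1-ps1 had 52.05, 85.3 and 141.23 in the H/R lists, against 102.23, 218.1 and 128.08 in the control lists. Llph-ps2 had 40.26, 503.14 and 44.87 in the H/R lists, against 566.49, 463.48 and 498.89 in the control lists, so 1 H/R list stood with the controls. Gm9581, whose symbol is now annotated as coding, had at chr16:59558013-59560242 17.52, 23.51 and 23.53 against 34.89, 36.06 and 32.11.

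**Figure D3:**
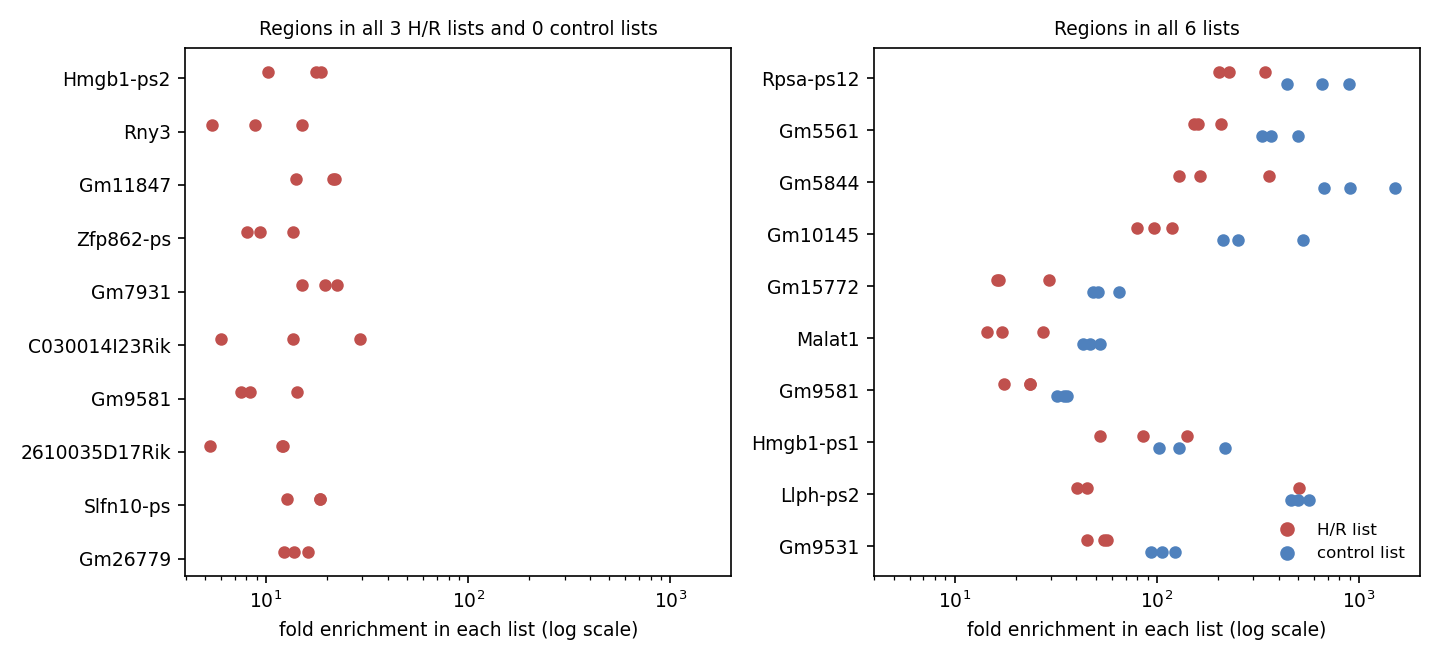
Fold enrichment of IP over local background (x axis, log scale) in each H/R list and each control list for the 10 first-ranked H/R-only regions (left panel) and the 10 first-ranked regions of all 6 lists (right panel), named by gene on the y axis. H/R-only regions lie between 5.3 and 29.11, and in the right panel the control points lie above the H/R points for all but Hmgb1-ps1 and Llph-ps2.

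In 49 of all 110 regions (44.5%) every deposited H/R fold was below every control fold, and in 0 every H/R fold was above, beside 47.6% and 0.645% of the 620 lncRNA regions of all classes found in all 6 lists. The median log2 difference, H/R minus control, was -0.87 over the 110 regions and -0.81 over the 620. The folds are not scaled between lists. The median fold of all lncRNA peaks was 8.68, 15.5 and 9.38 in the H/R lists, against 20.86, 34.17 and 29.3 in the control lists. Once each fold was divided by that median of its list, which is not independent of list length, the direction turned round. The median log2 difference became 0.48 over the 110 regions and 0.54 over the 620, every H/R value was above every control value in 28 of the 110 regions (25.5%, beside 34.5% of the 620), and every H/R value was below in 1 (0.909%, beside 0.968%). On each scale the direction of the median was the same over the 110 and the 620 regions. The list median was taken over every called peak, and the H/R lists were longer. At equal list length the median fold of intergenic peaks was 17.52, 25.06 and 23.35 in the H/R lists, against 31.94, 39.985 and 33.3 in the control lists. Scaling by medians of lists of equal length was not tested. Dividing by the list medians moves every region's log2 difference by the same amount, so it leaves their order as it was. Hmgb1-ps9 had the highest log2 difference of the 110, with deposited folds of 77.62, 121.47 and 129.66 in the H/R lists, against 28.47, 171.61 and 72.9 in the control lists. Its log2 difference was 0.59 as deposited and 1.94 after scaling.

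The members that matched the same coding gene differed widely in presence. Rpl21, a large-subunit ribosomal protein gene, was matched by 12 regions, the same number as Alms1, a centrosomal protein gene. Of the 12 Rpl21 matches 6 were in all 6 lists, although the symbol Rpl21 itself had no mRNA peak in any list. Gapdh, a glycolytic enzyme gene, was matched by 10 regions and also had no mRNA peak. Of these, Gm12033 was in all 6 lists, with folds of 27.92, 41.66 and 26.87 in the H/R lists, against 52.6, 41.83 and 52.6 in the control lists, and Gm13394, at 99.9% identity to Gapdh, was H/R-only, with 8.3, 47.27 and 9.98. In a given list, the coding gene had an mRNA peak for 49.8%, 50.4% and 55.1% of the matching regions in the H/R lists, against 45.9%, 45.8% and 44.7% in the control lists. No intergenic peak overlapped an mRNA peak of its own list. The same held for the other lncRNA peaks in all 6 lists, so this is not particular to the intergenic class.

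Presence was narrower for regions of annotated lncRNA genes than for those of pseudogenes, given here as counts without a test. Of their 232 regions 13 (5.60%) were in all 6 lists and 146 (62.9%) in 1 list, against 70 (20.6%) and 111 (32.7%) of the 339 processed pseudogene regions. H/R-only regions made up 1.72% of the lncRNA gene regions (4), 5.01% of the processed pseudogene regions (17) and 6.42% of the other pseudogene regions (7). In each list the pseudogene peaks had the higher median fold, with 10.28, 17.7 and 11.105 for pseudogenes against 7.515, 13.66 and 8.5 for lncRNA genes in the H/R lists. In the control lists the medians were 25.41, 41.83 and 34.49 for pseudogenes against 18.42, 32.95 and 26.905 for lncRNA genes. The mean difference of the median log2 fold was 0.40 and was above 0 in 6 of 6 lists (two-sided exact sign-flip permutation p = 0.031, the smallest that 6 lists allow). The median length of pseudogene peaks also exceeded that of lncRNA gene peaks, by 164.5, 14 and 199.5 bases in the H/R lists and by 45.5, 137 and 83 bases in the control lists (mean 107 bases, 6 of 6 lists, exact sign-flip permutation p = 0.031), but at equal list length the mean was -159 bases. These comparisons by type were chosen after the values had been seen. The 6 lists also share many of their regions, so they are not independent replicates of a contrast by type.

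**Figure D4:**
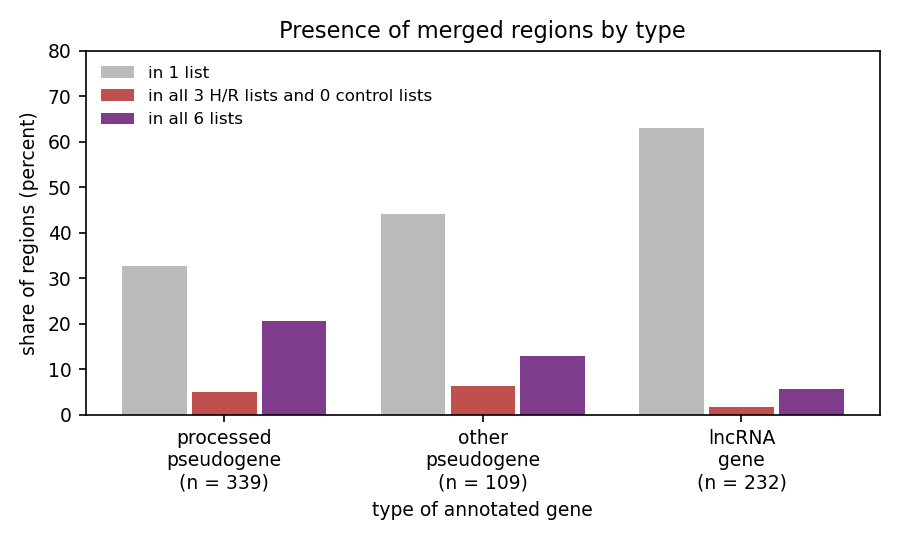
Share of merged regions in percent (y axis) found in 1 list, in all 3 H/R lists and 0 control lists, and in all 6 lists, for 339 processed pseudogene, 109 other pseudogene and 232 lncRNA gene regions (x axis). The bars for 1 list are 32.7%, 44.0% and 62.9%, and those for all 6 lists 20.6%, 12.8% and 5.60%.

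Among lncRNAs with known roles, Malat1 was found in every list. Its peak merged to chr19:5795690-5802672, the whole listed transcript of 6983 bases and the longest of the 792 regions. Its fold was 17.23, 27.24 and 14.38 in the H/R lists, against 52.13, 42.88 and 46.81 in the control lists, a log2 difference of -1.32 as deposited and of 0.03 after division by the list median. That median is not independent of list length. Neat1, the scaffold RNA of paraspeckles, is the neighbour of Malat1 and had 2 regions. The region at chr19:5841266-5845478 had folds of 7.9 and 9.55 in H/R A and C and no peak in H/R B, against 30.75, 38.89 and 20.09 in the control lists. The other, at chr19:5832338-5835136, was in 0 H/R lists and in control A and B, with folds of 78.59 and 1504. Tug1, a nuclear lncRNA first described in the retina, spanned 4105 bases, with 4.42, 9.1 and 9.48 in the H/R lists, against 13.88 and 15.48 in control A and B and no peak in control C. Trp53cor1, the p53-induced lincRNA-p21, had 8.17, 14.55 and 12.31 in the H/R lists, against 24.3 in control A alone.

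The remaining known members were mostly single-list calls. Pvt1, the neighbour of Myc, had 3 regions, each in 1 H/R list and in 0 control lists, with folds between 5.45 and 9.37. Snhg14, host of imprinted small nucleolar RNAs, had 3 regions, all in H/R C alone. Meg3, a maternally expressed imprinted RNA, had a region of 3585 bases with a fold of 6.64 in H/R C and of 14.53 in control A, and a second of 298 bases in H/R A. Snhg12, a small nucleolar RNA host, was in control A alone, with a fold of 17.45. Jpx, Ftx and Firre, X-linked lncRNAs of which Jpx and Ftx are tied to Xist, were found in H/R lists only, and the widest presence was 2 lists, for an Ftx region with 8.52 and 22.58 in H/R B and C. In the list of regulators 5 of 30 names had an intergenic peak, and 2 more had a peak in another lncRNA class only. The counts were 2 of 17 for small RNA hosts, 2 of 10 for imprinted lncRNAs, 3 of 5 for X inactivation lncRNAs and 2 of 20 for neural lncRNAs. In the neural list 1700020I14Rik had 3 regions, 2 of them in all 6 lists.

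Other lncRNA genes with a region in all 6 lists included Gm26617 and 5430416N02Rik. Gm26617 (chrX:94794581-94798289) had folds of 49.47, 25.56 and 20.73 in the H/R lists, against 64.8, 44.83 and 63.17 in the control lists. 5430416N02Rik had 2 such regions, and its region of 517 bases had 17.4, 18.62 and 32 in the H/R lists, against 36.23, 39.58 and 39.02 in the control lists. Also among the 5 longest regions were those of RP23-199B2.4 and Gm21911. The lncRNA gene RP23-199B2.4, which shares its region of 6261 bases with 5830417I10Rik, was in 5 lists and had 26.32, 36.53 and 18.08 in the H/R lists, against 42.37 and 55.63 in control A and C. Gm21911, an unprocessed pseudogene with a region of 4177 bases in all 6 lists, had 21.69, 28.72 and 11.15 against 19.46, 33.54 and 30.98.

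Of the 676 genes, 596 had 1 region, 57 had 2 and 23 had more. Alms1-ps2 had 7, of which 1, of 853 bases, was in all 6 lists. That region had folds of 28.08, 135.33 and 30.34 in the H/R lists, against 46.48, 117.5 and 33.3 in the control lists. The transcript named AK083498 had 6 regions at 2 loci of chromosome 7, where the longest pair, of 1928 bases each, was in all 6 lists at both. The first locus had 12.54, 17.93 and 35.29 in the H/R lists, against 34.55, 34.91 and 20.91 in the control lists, and the second 12.55, 19.37 and 32.62 against 36.23, 35.67 and 21.41. Alms1-ps1 and Zfp862-ps had 5 each, and 1300002E11Rik was 1 of 6 genes with 4. By chromosome, 89 of the 792 regions (11.2%) lay on chromosome 4 and 68 (8.59%) on X, against 288 (7.95%) and 98 (2.70%) of the 3623 other lncRNA regions.

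Intergenic peaks had a lower median length in every H/R list than in any control list. The median length was 431, 495.5 and 376 bases in the H/R lists, against 519, 528.5 and 498 bases in the control lists (difference of the means -81 bases, exact permutation p = 0.1), but at equal list length it was 25.3 bases longer in the H/R lists (exact permutation p = 0.4), and with a fold of at least 10 the difference was -8.17 bases (exact permutation p = 0.6). The median fold of intergenic peaks was 8.875, 16.77 and 9.77 in the H/R lists, against 22.66, 38.86 and 33.3 in the control lists, again without overlap (exact permutation p = 0.1). The median p score was 191, 298 and 184 in the H/R lists and 247, 199.8 and 194 in the control lists, which overlapped (exact permutation p = 1). A called transcript carried 1.10, 1.08 and 1.11 intergenic peaks on average in the H/R lists, against 1.06, 1.03 and 1.03 in the control lists (exact permutation p = 0.1). Peak ends often coincided with transcript ends. Of the 2022 peaks 1427 (70.6%) touched an end of their transcript and 615 (30.4%) spanned it whole. Whole-transcript peaks made up 22.9%, 34.6% and 19.8% in the H/R lists, against 38.2%, 44.2% and 41.2% in the control lists (exact permutation p = 0.1). At equal list length these shares overlapped, with 40.6%, 44.6% and 36.5% in the H/R lists and 47.1%, 45.4% and 41.2% in the control lists (exact permutation p = 0.2).

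Within each list, intergenic peaks of all types pooled had a higher median length and fold than the other lncRNA peaks. The median length of the other lncRNA peaks was 365, 419 and 332 bases in the H/R lists and 435, 472 and 460 bases in the control lists. The intergenic median exceeded it by 38 to 84 bases (mean 60.8, above 0 in 6 of 6 lists, exact sign-flip permutation p = 0.031). The median log2 fold was higher by 0.04 to 0.26 (mean 0.15, 6 of 6 lists, exact sign-flip permutation p = 0.031). This did not hold for intergenic peaks on annotated lncRNA genes. Their median fold, given above, was below that of the other lncRNA peaks in all 6 lists (8.66, 15.26 and 9.33 for other lncRNA peaks in the H/R lists, 20.15, 32.97 and 27.885 in the control lists), and their median length was 315.5, 498 and 260 bases in the H/R lists and 473.5, 444 and 432.5 bases in the control lists, below that of the other lncRNA peaks in 4 of 6. DRACH sites numbered 22.1, 22.2 and 21.7 per kb of intergenic peak in the H/R lists and 21.9, 21.6 and 21.2 in the control lists, without separation of the groups (exact permutation p = 0.2), and exceeded those of the other lncRNA peaks by 1.35 to 2.25 per kb (mean 1.87, 6 of 6 lists, exact sign-flip permutation p = 0.031). The GGAC motif went the other way in all 6 lists, with 4.01, 3.84 and 4.14 sites per kb of intergenic peak against 4.36, 4.11 and 4.29 per kb of other lncRNA peak in the H/R lists, and 4.04, 4.01 and 3.94 against 4.21, 4.24 and 4.24 in the control lists, given here without a test. The share of peaks found in every list of their own group was 50.7%, 61.7% and 40.9% in the H/R lists, against 45.1%, 63.9% and 62.6% in the control lists. It differed from that of other lncRNA peaks by -2.97 percentage points on average, with 2 of 6 lists above 0 (exact sign-flip permutation p = 0.125). The lists share many of their regions, and motifs were counted on the reference genome. The 6 lists are therefore not independent replicates of these within-list contrasts, and the sign-flip p values do not measure a spread between independent sets of peaks.

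Some facts of the whole series bear on these results. The false discovery rate deposited with each peak was 5% or less for 0 of the 2022 intergenic peaks, its lowest value was 24.98%, and it was 100% for 706 of them, so a call here means a p score of at least 50.04 and not a controlled rate of false peaks. The number of reads behind a list was not used here, and lists of deeper libraries can be longer. The mRNA lists held 13954 to 22038 peaks in the H/R group and 7863 to 12180 in the control group. As a check of the cell label, the NSC markers Nes, Sox2 and Notch1 had an mRNA peak in all 6 lists and 5 of 12 in any list, while no marker of neurons, astrocytes, oligodendrocytes, microglia, endothelium or fibroblasts was in all 6. In any list stood 2 of 7 neuron, 1 of 4 astrocyte, 1 of 6 oligodendrocyte, 1 of 5 microglia and blood, 0 of 3 endothelium and 2 of 4 fibroblast markers, and their part in the results was not tested. A peak shows enriched RNA and gives no expression level, so a region without a peak may be unmethylated or unexpressed, and these cannot be told apart here. The authors dropped reads that mapped to several places, and 414 of the 792 regions matched a coding transcript of another locus. Whether a peak, or its absence, in these regions depends on how reads were assigned between near copies was not tested.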

How the data were processed

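MeRIP-seq libraries (3 IP and 3 input in each of the H/R and control groups) were represented by 18 deposited peak lists, of which the 6 lncRNA lists were the main material. From the methods and the submitters' processing notes, the authors trimmed reads with cutadapt (version 1.9.3), aligned them to mm10 with HISAT2 (version 2.0.4), dropped reads that mapped to several places, called peaks per library with MACS (version not given in the sources used here) and, as the methods state it, kept the parts on exons. Of 1558 intergenic peaks on transcripts with exon models here, 1338 lay wholly within exons. They pooled no replicates. As deposited, the p score is the -log10 of the MACS p multiplied by 10, fold enrichment is the ratio of IP to local background, and the false discovery rate is a percent. Peak length is in bases, both printed ends included. The lists were not normalised to each other. The read number behind a list was not used here, so no counting interval was given.

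Python (version 3.11.15) merged intergenic peaks that overlapped by at least 1 base. Sequences came from GRCm38, types from GENCODE vM21 and RefSeq, and near copies from a BLAST (version 2.17.0) search of each region against GENCODE coding transcripts, own locus left out. Of 714 transcripts, 643 received a type. Lists were compared by two-sided exact permutation tests, 3 against 3 (smallest p 0.1) or by sign flips over 6 lists (smallest p 0.031), at a threshold of 0.05, with no adjustment over the 22 tested measures. The merging was checked on simulated peaks, and each test on 1 fixed set of numbers with a known p. Alternatives were a p score of at least 100, a fold of at least 10, lists of equal length, wholly intergenic peaks, half-length overlap, absence judged over all peak classes, and each list left out.

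Regions were ranked by their lowest p score and then their lowest fold over the lists that define their set. Named were the first 10 of different genes in all 6 lists and among H/R-only regions, all control-only regions, the 5 longest, the 5 genes with most regions, and every member of the fixed lncRNA lists with an intergenic peak. Hmgb1-ps9, the regions matching Rpl21 and Gapdh, Gm26617 and 5430416N02Rik were chosen after their values were seen, as were the splits by type and coding match. The members and lists were chosen with earlier results of these data known.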

Additional observations from a re-analysis of the deposited data

How the results depend on the processing

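At equal list length, with the best 1047 lncRNA peaks of each list, the H/R minus control difference turned round to -33 peaks, -34 transcripts, -34 genes, 25.3 bases of median length, -0.042 DRACH sites per kb, -32.7 pseudogene peaks and -2.33 lncRNA gene peaks, the pseudogene minus lncRNA gene length became -159 bases, and 6 regions were H/R-only, 10 control-only and 69 in all 6 lists. A fold of at least 10 left 11 H/R-only and 4 control-only regions and turned the difference in sharing within a group to 1.10 percentage points. A p score of at least 100 gave 25 H/R-only regions, 16 of them among the 31, and 1 control-only region, which was neither of the 2 found without it. It also gave a pseudogene minus lncRNA gene length of 13.8 bases (exact sign-flip permutation p = 0.84). With a fold of at least 10, the H/R minus control differences shrank to 15 peaks, 11 transcripts, 10.3 genes, 1.33 pseudogene peaks, 5 lncRNA gene peaks and -8.17 bases of median length, and the whole-transcript share to -8.82 percentage points, against -3.97 at equal list length. The fold cut removed no intergenic peak from control B or control C. The cause of these shifts was not tested. The Tug1 region, with 1 H/R list more than control lists, stood at -2 with a fold of at least 10 and at -1 at equal list length. In an alternative chosen after seeing the data, without regions that match a coding transcript, 10 were H/R-only, 0 control-only and 27 in all 6 lists.

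Leaving out each list in turn gave 34 to 75 H/R-only and 3 to 12 control-only regions, with 75 without H/R B and 12 without control A. For these counts and those of the other alternatives, no share over all lncRNA regions was taken. The H/R-only count was 47 without H/R A, 50 without H/R C and 53 without control A, and the control-only count 5 without H/R B, 4 without H/R C and 8 without control C. The H/R minus control p score ranged between -26.1, without H/R B, and 31.0. The 5 within-list differences kept their direction but 5 lists cannot give a p below 0.0625. Their ranges were 56.2 to 65.4 bases and 0.13 to 0.17 log2 fold and 1.79 to 1.97 DRACH sites per kb for intergenic minus other peaks, and 0.38 to 0.41 log2 fold and 88.8 to 125.9 bases for pseudogene minus lncRNA gene peaks. The tested differences not named here kept their direction under every alternative, at sizes that varied. Requiring wholly intergenic peaks changed no value, since no intergenic peak had a second class. No paired analysis was possible because the lists are named A, B and C and nothing matches these letters with the numbered replicates of the labels.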
